A study of Homo sapiens with 32 samples.

Results

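The short arm of chromosome 3 (3p) carries VHL, SETD2, PBRM1 and BAP1, and its peaks of N6-methyladenosine (m6A) are described here. A peak was taken as a short arm peak where it lay on chromosome 3 and ended before position 90000000 of hg38. By this rule 10544 of the 474004 peaks in the 16 lists were on the short arm, and 13848 were on the rest of chromosome 3 (3q). The last peak inside the boundary lay at 89463897-89464165 and the first one past it at 93938617-93938905, so no peak fell near the cut.

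The peaks came from methylated RNA immunoprecipitation sequencing (MeRIP-seq), in which RNA fragments are pulled down with an m6A antibody (IP) and compared with the starting RNA (Input). Lists of 16 IP libraries were used, 8 from 786-O, a clear cell renal cell carcinoma (ccRCC) line, and 8 from RPTEC, an hTERT-immortalized renal proximal tubule epithelial line taken as a surrogate of normal tubule. In each cell line there were 2 libraries of the unmodified cells (WT), 2 of each of the knockout clones SETD2KO-1 and SETD2KO-2, made with CRISPR/Cas9, and 2 of SETD2KO-1R, which is clone SETD2KO-1 carrying a FLAG-tagged full-length SETD2 transgene and cloned again. WT and SETD2KO-1R are together called SETD2-expressing. Cells received no drug. Each knockout or rescue line is 1 clone, so the effect of SETD2 and that of the clone cannot be told apart within a line, and nothing says that the 2 libraries of a line came from separate cultures, so the p-values measure the spread between these libraries. The lists held 19249 to 39670 peaks, the shortest being RPTEC SETD2KO-2 library 2 and, in 786-O, SETD2KO-1R library 2. They give no read counts, so the depth behind a peak is unknown, and a gene without a peak may be unmethylated, too weakly expressed or below what the list could call. As a check of the labelled tissue, the kidney factors PAX8 and PAX2 and the epithelial keratins KRT8 and KRT18 held a peak in all 16 libraries, whereas the tubule transporters and receptors AQP1, LRP2 and SLC34A1 and the hypoxia marker CA9 held none, and CUBN held 1 peak in 1 library. PTPRC, PECAM1 and ALB, markers of blood, endothelial and liver cells, held no peak, and the fibroblast collagen COL1A1 held 0 to 4 peaks a library.

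m6A is deposited on nascent RNA by a complex built around METTL3 and METTL14, mostly at adenosines in a GGAC-type context, and is often found near stop codons and in long exons. SETD2 is the enzyme that trimethylates lysine 36 of histone H3 over transcribed gene bodies, a mark that METTL14 can bind. In ccRCC one copy of the short arm of chromosome 3 is usually lost, which removes one allele each of VHL, a ubiquitin ligase subunit that targets hypoxia-inducible factors, of PBRM1, a subunit of a SWI/SNF chromatin remodeller, of SETD2 and of BAP1, a histone deubiquitinase. The copy number of the arm in these cells was not measured, and RNA abundance was not used.

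The sequence at the start of 6 short arm genes illustrates where peaks were and were not shared between the lines. Windows of 300 bases, from 250 before to 50 after a RefSeq transcript start (GRCh38.p14), were available for 954 starts of 725 short arm symbols. Of these, 203 windows (21.3%) overlapped a peak in at least 1 library, against 24.0% of the windows of all chromosomes. Only 4 windows (0.419%, against 0.772% of all) did so in all 16 libraries, those of EMC3-AS1, PDCD6IP, PDCD6IP-DT and SLMAP. The motif GGACT, or AGTCC as its reverse complement, was in 44.3% of the short arm windows and in 44.2% of all, so it was no more frequent here. The windows are written 5′ to 3′ on the strand of the gene, with GGACT or AGTCC in capitals. In RNA read from that strand only GGACT is the motif, and it was in 24.9% of the short arm windows and 25.3% of all. Most of each window lies before the transcript start. The first 2 are shown because all 16 libraries called a peak in them. They belong to PDCD6IP, an adaptor of membrane scission, at chr3:33798380-33798679 on the plus strand, and to SLMAP, a membrane-anchored protein, at chr3:57757006-57757305 on the plus strand.
PDCD6IP: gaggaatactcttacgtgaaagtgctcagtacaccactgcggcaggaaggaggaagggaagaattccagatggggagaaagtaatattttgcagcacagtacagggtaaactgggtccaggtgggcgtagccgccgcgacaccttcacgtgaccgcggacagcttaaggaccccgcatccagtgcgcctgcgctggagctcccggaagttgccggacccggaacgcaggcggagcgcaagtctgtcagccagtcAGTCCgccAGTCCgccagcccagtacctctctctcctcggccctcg
SLMAP: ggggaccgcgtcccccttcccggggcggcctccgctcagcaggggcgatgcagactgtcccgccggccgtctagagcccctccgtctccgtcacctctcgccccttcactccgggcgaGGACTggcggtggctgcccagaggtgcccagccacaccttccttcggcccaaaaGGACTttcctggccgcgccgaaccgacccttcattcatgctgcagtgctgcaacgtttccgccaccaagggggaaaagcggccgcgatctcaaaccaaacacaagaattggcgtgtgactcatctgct
The next 2 belong to the tumour suppressor PBRM1, at chr3:52685864-52686163 on the minus strand, and to RBM15B, an RNA-binding adaptor of the m6A writer complex itself, at chr3:51391035-51391334 on the plus strand. A peak overlapped the PBRM1 window in 7 libraries of 786-O and 6 of RPTEC, and the RBM15B window in 5 and 7.
PBRM1: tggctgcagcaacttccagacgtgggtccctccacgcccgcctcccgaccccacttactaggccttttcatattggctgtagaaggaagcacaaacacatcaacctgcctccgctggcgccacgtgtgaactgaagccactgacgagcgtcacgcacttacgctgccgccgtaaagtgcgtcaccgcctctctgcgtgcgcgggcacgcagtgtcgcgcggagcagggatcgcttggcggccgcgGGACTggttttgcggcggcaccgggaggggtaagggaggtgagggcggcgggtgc
RBM15B: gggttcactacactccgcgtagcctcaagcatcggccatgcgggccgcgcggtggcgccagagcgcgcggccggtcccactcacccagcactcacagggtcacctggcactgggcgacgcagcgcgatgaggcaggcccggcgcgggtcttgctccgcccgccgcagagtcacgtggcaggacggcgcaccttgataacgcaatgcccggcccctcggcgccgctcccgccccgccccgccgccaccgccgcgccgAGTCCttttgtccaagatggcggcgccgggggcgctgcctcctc
The last 2 differed between lines. The window of the chromatin organiser SATB1, at chr3:18425290-18425589 on the minus strand, was called in all 4 RPTEC knockout libraries and none of the 4 SETD2-expressing ones, and in 786-O in both libraries of SETD2KO-1 and of SETD2KO-1R but in none of WT or SETD2KO-2. The window of the ligand WNT5A, at chr3:55487257-55487556 on the minus strand, was called in all 8 RPTEC libraries and in 786-O in the 2 WT libraries alone. Neither of these windows holds the motif, which says only that these letters are absent from it.
SATB1: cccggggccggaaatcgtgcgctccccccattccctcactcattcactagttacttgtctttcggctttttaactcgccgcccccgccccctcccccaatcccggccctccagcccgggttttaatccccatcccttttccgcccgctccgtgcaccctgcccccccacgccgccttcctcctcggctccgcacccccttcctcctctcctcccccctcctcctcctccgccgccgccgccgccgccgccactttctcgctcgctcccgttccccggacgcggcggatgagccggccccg
WNT5A: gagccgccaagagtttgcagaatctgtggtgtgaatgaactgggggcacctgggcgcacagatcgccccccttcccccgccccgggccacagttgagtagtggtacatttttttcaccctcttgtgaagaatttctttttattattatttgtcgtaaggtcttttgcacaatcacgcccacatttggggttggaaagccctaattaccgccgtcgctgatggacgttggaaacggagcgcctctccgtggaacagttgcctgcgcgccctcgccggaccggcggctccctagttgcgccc

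To ask whether the arm that ccRCC loses carries fewer m6A peaks in the ccRCC line, the share of each list on the short arm was compared. In 786-O the short arm held 2.31% and 2.27% of the peaks in the WT libraries, 2.02% and 2.14% in SETD2KO-1, 1.95% and 2.14% in SETD2KO-2, and 1.72% and 1.63% in SETD2KO-1R. In RPTEC it held 2.55% and 2.47%, 2.36% and 2.42%, 2.39% and 2.32%, and 2.54% and 2.58% in the same order. Every RPTEC library lay above every 786-O library, and the lowest of all were the 2 rescue libraries of 786-O. With the 4 lines of a cell line as units, the mean share was lower in 786-O by 0.432 percentage points (2.02% ± 0.245, SD, n = 8 libraries, against 2.45% ± 0.0952, n = 8). This gave an exact permutation p = 0.0286, two-sided, the smallest that 70 arrangements of 4 against 4 lines can give, and 0.0714 after Benjamini-Hochberg adjustment over 25 chromosome parts. The short arm was not alone, since 10 of the 25 parts reached that smallest p and 0 of 25 (0%) passed after adjustment. With single libraries as units, which treats the 2 libraries of a line as independent, the adjusted p was 0.000971 and 14 of 25 parts passed. Lines are not independent units either, since the 4 lines of a cell line come from the same parent cells. The contrast is therefore between these cell lines and cannot speak for ccRCC at large. The long arm showed a difference of -0.0689 percentage points (p = 0.571 by the same exact permutation test).

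Counting genes in place of peaks gave the same direction, since 2.57% ± 0.132 (SD, n = 8) of the protein-coding genes with a peak lay on the short arm in 786-O and 2.78% ± 0.0641 (n = 8) in RPTEC (difference -0.215 percentage points, exact permutation p = 0.0286 over lines). The short arm holds 501 of the 20033 protein-coding genes in the RefSeq table, or 2.50%. Within chromosome 3 the short arm took 45.4% and 45.0% of the peaks in 786-O WT, 39.7% and 40.7% in SETD2KO-1, 40.6% and 39.6% in SETD2KO-2, and 39.3% and 37.9% in SETD2KO-1R. In RPTEC the values were 48.1% and 45.9%, 42.2% and 45.8%, 44.6% and 41.9%, and 46.3% and 47.6%. The cell lines overlapped on this scale, and the difference of -4.28 percentage points had an exact permutation p = 0.0857 over lines.

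**Figure D1:**
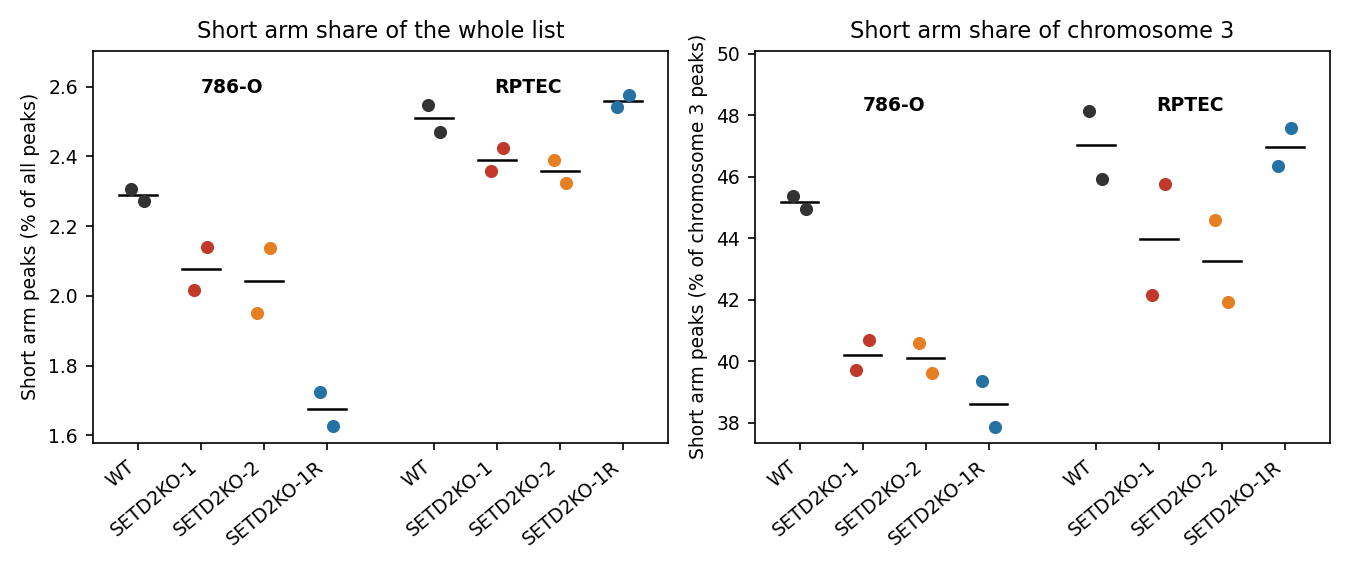
Share of short arm peaks in each of the 16 lists (left, percent of all peaks) and among chromosome 3 peaks (right, percent); each point is 1 library, each horizontal line the mean of the 2 libraries of a line, and neither axis starts at 0. On the left all 8 RPTEC points lie above all 8 points of 786-O, whose rescue libraries are lowest at 1.72% and 1.63%.

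Within each cell line, knockout and WT were compared next, with single libraries as units, which treats the 2 libraries of a line as independent. The mean of the 4 knockout libraries minus that of WT was -0.229 points for 786-O (exact permutation p = 0.133, adjusted 0.208) and -0.135 for RPTEC (p = 0.0667, the smallest that 4 against 2 libraries can give, adjusted 0.238). Within chromosome 3, the same difference was -5.02 points for 786-O (exact permutation p = 0.0667) and -3.42 for RPTEC (p = 0.133), where the first is larger in size than the difference between the cell lines. Rescue went different ways in the cell lines. In RPTEC the rescue libraries were back at the WT level, and knockout and SETD2-expressing libraries did not overlap (2.37% ± 0.0436 against 2.53% ± 0.0457, SD, n = 4 each, difference -0.160, exact permutation p = 0.0286, adjusted 0.102, with 7 of 25 parts at or under that p and 0 of 25, 0%, passing after adjustment). The same held within chromosome 3 for RPTEC (-3.38 points, exact permutation p = 0.0286), but the share of called genes that lie on the short arm differed by -0.00847 points (p = 0.857 by the same test), so the shift was in peaks and was not seen in genes. In 786-O the rescue libraries lay below the knockouts, so that knockout and SETD2-expressing libraries differed by 0.0787 percentage points (2.06% ± 0.0931 against 1.98% ± 0.357, SD, n = 4 each, exact permutation p = 0.657, adjusted 0.747). There, 9 of 25 parts reached the smallest exact permutation p and 0 of 25 (0%) passed after adjustment. The sign of this last difference turned to -0.0401 without SETD2KO-1R library 2 and to -0.00735 without SETD2KO-1R library 1. Between 786-O and RPTEC, the knockout effect differed by 0.239 points (exact permutation p = 0.218, 4900 arrangements within cell line).

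Among the 4 lines of a cell line, the means of the short arm share spanned 0.614 percentage points in 786-O, from 1.67% ± 0.0695 in SETD2KO-1R to 2.29% ± 0.0246 in WT (SD, n = 2 each). The exact permutation test over all ways to pair the 8 libraries gave p = 0.0381, adjusted 0.0952, with 10 of 25 parts under 0.05 before and 0 of 25 (0%) after adjustment. In RPTEC they spanned 0.203 points, from 2.36% ± 0.0483 in SETD2KO-2 to 2.56% ± 0.0245 in SETD2KO-1R (p = 0.0476 by the same exact test, adjusted 0.198, with 6 of 25 parts under 0.05 before and 0 of 25, 0%, after adjustment). The 2 rescue clones therefore stood at opposite ends of their series.

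Short arm peaks were more often genic than the rest of their own list. A mean of 91.2% ± 1.90 (SD, n = 8) of short arm peaks had their midpoint in a protein-coding gene in 786-O, against 84.1% of the other peaks and 82.8% of those on the rest of chromosome 3. In RPTEC the values were 92.1% ± 1.37 (n = 8), 87.0% and 83.1%. The gap to the rest of the list was 7.15 points for 786-O and 5.12 for RPTEC, positive in 8 of 8 libraries of each (exact sign-flip permutation p = 0.00781, the smallest for 8 libraries, adjusted 0.0104 over 8 such tests). Short arm peaks also ranked slightly lower by their score, on average at the 47.2 percentile of their list in 786-O and at 48.3 in RPTEC (-2.85 and -1.71 against the others, lower in 8 of 8 libraries of each, exact sign-flip p = 0.00781). Their median width differed from that of the others by -11.7 bp in 786-O (narrower in 7 of 8 libraries, exact sign-flip p = 0.0156) and by -9.31 bp in RPTEC (7 of 8, p = 0.0391). The RPTEC width difference kept its direction throughout but missed the threshold without WT 2, SETD2KO-1 1, SETD2KO-2 1, SETD2KO-1R 1 or SETD2KO-1R 2 (-9.5 to -7.36 bp, exact sign-flip p = 0.0781 each), and with the upper 50% of each list by score (-14 bp, p = 0.0781). Along gene bodies, read on the strand of the gene, the last 10% of the gene took 24.6% ± 2.05 of the short arm peaks in 786-O against 20.1% elsewhere, and 23.2% ± 2.03 against 21.4% in RPTEC. The first 10% of the gene took a smaller share than elsewhere, with differences of -2.33 and -1.63 points (all 4 differences in 8 of 8 libraries, exact sign-flip p = 0.00781). Short arm peaks thus leaned towards the 3′ end of genes, where m6A is known to concentrate. The sign-flip tests take the 8 libraries of a cell line as independent, though these share a parent line. They were run for the short arm alone, so they do not tell whether other chromosome parts differ as much from their lists.

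Peaks were spread unevenly along the arm. Divided into 18 intervals of 5 Mb from the tip, the interval at 45 to 50 Mb, with 100 protein-coding genes, SETD2 among them, held 19.7% ± 2.73 (SD, n = 8) of the short arm peaks in 786-O and 19.6% ± 1.72 in RPTEC. The next one, at 50 to 55 Mb, with 86 protein-coding genes, PBRM1 and BAP1 among them, held 11.5% ± 2.09 and 13.5% ± 1.48. The 3rd interval, with VHL, held 8.69% ± 0.705 and 9.99% ± 1.21. Some intervals differed between the lines of 786-O. The first 5 Mb held 4.58 peaks per 10000 peaks of the list in WT and 4.29 in SETD2KO-1R, against 8.94 in SETD2KO-1 and 11.1 in SETD2KO-2, while all 4 lines of RPTEC lay between 1.67 and 3.19. In the interval at 45 to 50 Mb, WT had 49.1 peaks per 10000 and the other 3 lines of 786-O 36.3 to 36.6, so that rescue did not return to WT there. At 60 to 65 Mb the rescue line of 786-O had 4.87 against 9.86 to 11.6 in its other lines. These interval values are given as a description and were not tested.

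**Figure D2:**
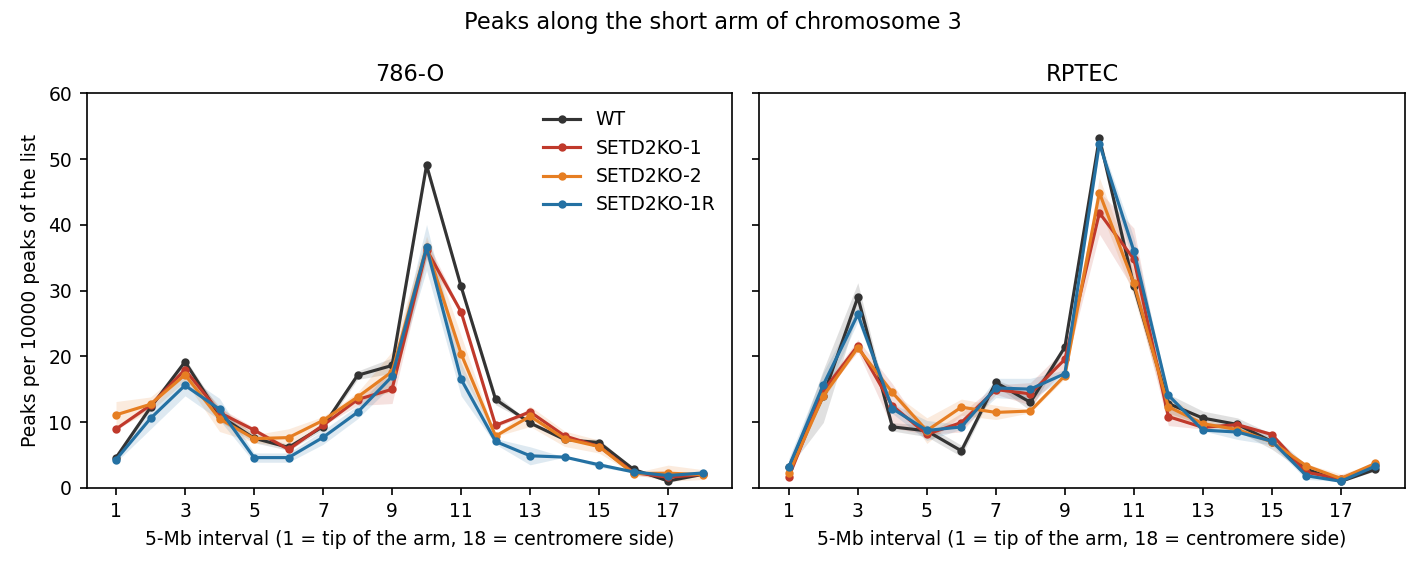
Peaks per 10000 peaks of the list (y axis) in each of the 18 intervals of 5 Mb along the short arm (x axis, 1 is the tip), for 786-O (left) and RPTEC (right); lines join the means of the 2 libraries of a line and the shading spans them. The peak at interval 10 is 49.1 in 786-O WT and 36.3 to 36.6 in its other lines, and in the first interval only the 2 knockout lines of 786-O rise above 8.

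All 4 of the ccRCC tumour suppressors on the arm carried m6A peaks in both cell lines, and none was called in one cell line alone. In the following, values are in the order WT 1, WT 2, SETD2KO-1 1, SETD2KO-1 2, SETD2KO-2 1, SETD2KO-2 2, SETD2KO-1R 1 and SETD2KO-1R 2. SETD2, the targeted gene (gene body 47016436-47164840, minus strand), held 8, 10, 5, 10, 5, 4, 7 and 9 peaks in 786-O and 7, 10, 6, 4, 4, 5, 11 and 10 in RPTEC. The RPTEC knockouts were all below the SETD2-expressing libraries (4.75 ± 0.957 against 9.5 ± 1.73 peaks, SD, n = 4 each, exact permutation p = 0.0286, the smallest possible, and 1 after adjustment over 12088 genes). In 786-O the groups overlapped through SETD2KO-1 library 2 (6 ± 2.71 against 8.5 ± 1.29, exact permutation p = 0.2). Peak counts do not show the edit itself, since transcripts of an edited gene can still be made, and a transgene holds no intron. In the rescue libraries, at 11 and 10 peaks in RPTEC, peaks cannot be split between the gene and the transgene. RPTEC WT alone, at 7 and 10, also lay above the knockouts. The tests of knockout against SETD2-expressing libraries take the 2 libraries of a line as independent.

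Within SETD2, peaks of the 16 libraries merged into 17 regions, of which 2 were called in all 16, at 47083913-47084621 and 47120375-47121478. A region near the start of the gene, at 47160187-47160673, was called in all 4 RPTEC libraries that express SETD2 but in 1 of the 4 RPTEC knockouts, while in 786-O it was called in all 4 knockouts, both WT libraries and 1 rescue library. VHL (10141778-10153667) held 1 or 2 peaks in every library and in a single region, at 10141613-10142995, over the start of the gene. That region was called in all 16 libraries and ranked on average at the 83.3 percentile of its list.

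PBRM1 (52545367-52685913, minus strand) held 7, 4, 1, 2, 2, 3, 3 and 2 peaks in 786-O and 6, 7, 6, 7, 4, 4, 9 and 6 in RPTEC. Over lines, 786-O had 3 ± 1.73 and RPTEC 6.13 ± 1.49 (SD, n = 4 lines each, exact permutation p = 0.0571, and 0.442 after adjustment over 13320 genes). In 786-O the WT libraries were highest, and the knockout and rescue libraries overlapped at 1 to 3 peaks. With the same number of top-scoring peaks taken from every list, and in no other setting tried, PBRM1 had fewer peaks in every 786-O knockout library than in any SETD2-expressing one. The share of all genes that do so in that setting was not counted. Of its 15 regions, 1 was called in all 16 libraries, at 52609467-52610205, and 1 at 52603686-52603980 was called in both RPTEC WT libraries, 1 rescue library and no knockout. Another, at 52593827-52595498, was called in both WT libraries of 786-O but none of its 6 others, and in 6 of 8 RPTEC libraries. BAP1 (52401008-52410008) held 2, 6, 4, 4, 3, 0, 2 and 0 peaks in 786-O and 1, 1, 1, 3, 1, 1, 5 and 2 in RPTEC. The 2 libraries without a BAP1 peak were SETD2KO-2 2 and SETD2KO-1R 2 of 786-O. Of its 6 regions none was called in all 16 libraries, and the most frequent one, at 52409594-52410150 beside the start of the gene, was called in 14. Another, at 52406880-52407143, was called in both 786-O WT libraries and in no knockout or rescue library of 786-O, and in RPTEC in the 2 rescue libraries alone.

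**Figure D3:**
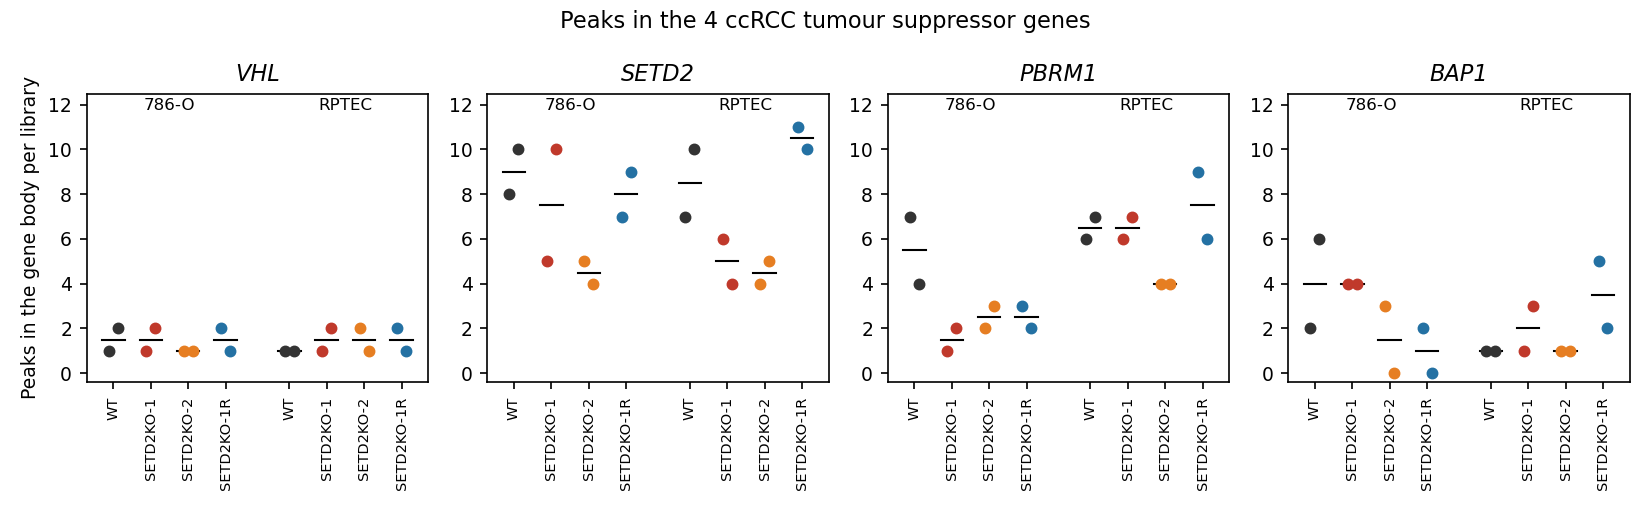
Peaks in the gene body per library (y axis) for VHL, SETD2, PBRM1 and BAP1; each point is 1 library and each horizontal line the mean of the 2 libraries of a line. SETD2 is lower in the 4 RPTEC knockout libraries (4 to 6 peaks) than in the SETD2-expressing ones (7 to 11), VHL stays at 1 or 2 in all 16, and PBRM1 is at 1 to 3 in the 786-O lines other than WT.

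Other groups of short arm genes were read by how many members held a peak, against 66.5% of all protein-coding genes in at least 1 library and 22.6% in all 16. On the whole arm, 354 of 501 genes (70.7%) held a peak in at least 1 library and 106 (21.2%) in all 16. Of 23 other tumour suppressor candidates, 18 held a peak in at least 1 library and 3 in all 16. The 3 were FOXP1, a forkhead transcription factor (9, 15, 8, 10, 10, 10, 7 and 6 peaks in 786-O and 9, 14, 8, 12, 6, 6, 12 and 14 in RPTEC), PTPRG, a receptor tyrosine phosphatase (9, 13, 7, 14, 8, 10, 6 and 2, and 5, 5, 4, 6, 5, 9, 6 and 9), and HYAL2, a hyaluronidase (1 or 2 in every library). The others ranged widely. The hormone receptor gene THRB was called in 15 of 16 libraries with up to 13 peaks, FHIT, a diadenosine hydrolase in a fragile site, in 13 with up to 4, and RASSF1, a scaffold of the Hippo pathway, in 3 with up to 2, while LTF, ZMYND10, HYAL1, FBLN2 and ROBO2 held none.

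Over the 4 ccRCC tumour suppressors, the median difference between knockout and SETD2-expressing libraries was -1.125 peaks in 786-O and -1.25 in RPTEC, beside 0 over all genes with a peak. These 4 include the edited gene, SETD2 (-2.5 and -4.75), and went both ways, with BAP1 at 0.25 in 786-O and VHL at 0.25 in RPTEC, and none passed the exact permutation test after adjustment over all genes (adjusted p = 1 for each). Over the other lists it lay between -0.5 and 0.25 in both cell lines. Of 16 chromatin and transcription genes, 13 held a peak and 7 did in all 16 libraries, namely SETD5, TADA3, BRPF1, NR1D2, NR2C2, BHLHE40 and MITF. BRPF1, a scaffold of histone acetyltransferase complexes, held 5, 6, 6, 5, 5, 5, 4 and 2 peaks in 786-O and 5, 2, 3, 4, 4, 2, 5 and 6 in RPTEC. MITF, a transcription factor best known from melanocytes, held 1 to 8 and 2 to 7.

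Of 9 DNA repair genes, 8 held a peak and 2 did in all 16 libraries, XPC, the damage sensor of nucleotide excision repair (2 to 7 peaks in 786-O and 2 to 6 in RPTEC), and OGG1, the glycosylase for oxidised guanine (2 to 7 and 3 to 8). OGG1 overlaps CAMK1 and also TADA3 of the chromatin group, and ATRIP overlaps TREX1. Peaks there, which carry no strand, cannot be given to one gene, and those in the shared stretch of OGG1 and TADA3 count towards both groups. Of 13 RNA-binding genes, 11 held a peak. RBM15B held 3, 4, 3, 2, 3, 2, 3 and 3 peaks in 786-O and 3, 3, 2, 5, 3, 3, 3 and 4 in RPTEC, in 4 regions of which 2 were called in all 16 libraries, at 51392104-51393484 and 51393618-51394652. The spread over libraries was 0.641 peaks in 786-O and 0.886 in RPTEC (SD, n = 8 each). The other gene of this group in all 16 libraries was RBM6, a splicing regulator, with 1 to 5 peaks in 786-O and 1 to 9 in RPTEC.

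Of 5 ribosomal protein genes, 4 held a peak and none did in all 16 libraries. RPL14 was called in 14 of 16, with 31 peaks in all or 1.72 per 10 kb and library, RPL15 in 10, RPL32 in 8 and RPL29 in 5, and RPSA held no peak. Of 22 metabolic enzymes and transporters, 17 held a peak and 3 did in all 16 libraries. These were the taurine transporter SLC6A6 (10, 13, 10, 12, 15, 1, 10 and 2 in 786-O and 7, 2, 3, 9, 3, 2, 11 and 12 in RPTEC), the lysosomal galactosidase GLB1 (2 to 4 and 1 to 4) and SUCLG2, a subunit of succinyl-CoA ligase in the citric acid cycle (1 to 6 and 1 to 5). For SLC6A6 the lowest library of 786-O was SETD2KO-2 2, with 1 peak, and in RPTEC WT 2 and SETD2KO-2 2 were lowest with 2 each. The tubule transporters SLC22A13, SLC22A14 and SLC6A20 held no peak. All 23 adhesion and signalling genes held a peak in at least 1 library and 7 did in all 16, among them DAG1 and LAMB2, which bind the cell to its basement membrane, and COL7A1. No list other than adhesion and signalling had a member that passed the test between the libraries of the cell lines, and there it was WNT7A.

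Peaks also concentrated in single genes. The 5 short arm genes with the most peaks over all 16 libraries were RBMS3 (205 peaks), an RNA-binding protein, MAP4 (181), a microtubule-associated protein, COL7A1 (175), the anchoring fibril collagen, OSBPL10 (175), an oxysterol-binding protein homologue, and FOXP1 (156). Per length COL7A1 stood apart, with 3.50 peaks per 10 kb of gene and library against 0.155 to 0.475 in the other 4, which are long genes. COL7A1 held 14, 16, 14, 12, 16, 8, 14 and 3 peaks in 786-O and 10, 4, 6, 15, 11, 3, 16 and 13 in RPTEC. Its 2 lowest counts, of 3, were in the shortest list of each cell line.

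To find short arm genes that differ between the cell lines, the 8 libraries of each were compared by whether a gene held a peak (Fisher's exact test, Benjamini-Hochberg adjustment over 13320 genes). No short arm gene was called more often in 786-O (0 of 354, against 0.42% of all genes), and 5 were called more often in RPTEC (against 0.691% of all). At an unadjusted p under 0.05 there were 8 and 12 of 354, beside 564 and 411 of all 13320 genes. The rest of chromosome 3 had 17 and 15 of 365 genes at that unadjusted p, and 2 and 4 after adjustment. All 5 genes held a peak in 8 of 8 RPTEC libraries and none of 786-O (p = 0.0001554 by Fisher's exact test, the smallest for 8 against 8, adjusted 0.0140). This test takes the 2 libraries of a line as independent. With the 4 lines of each cell line as units, the peak number of each of the 5 genes differed at the smallest exact permutation p of 0.0286, with 0.294 after adjustment over the 13320 genes, so that none passed. With that smallest p, no gene could pass unless most genes reached it.

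CACNA2D3 (54122552-55074557), an auxiliary subunit of voltage-gated calcium channels, held 6, 4, 11, 20, 10, 9, 16 and 10 peaks in RPTEC. WNT7A (13816258-13880071, minus strand), a secreted Wnt ligand, held 15, 10, 4, 6, 5, 3, 9 and 5. In RPTEC it was higher in WT than in any knockout, and library 2 of the rescue was level with SETD2KO-2 library 1 and below SETD2KO-1 library 2. ZNF385D (21412218-22372763), ZNF717 (75694701-75785549) and ZNF502 (44712660-44723831), which encode zinc finger proteins, held 1 to 5, 1 or 2, and 1 or 2 peaks in each RPTEC library. ZNF717 has near-identical copies elsewhere in the genome, so its reads may be shared. The peaks of WNT7A fell into 17 regions and those of CACNA2D3 into 34. At the other end, SS18L2 was called in 8 of 8 libraries of 786-O and 1 of RPTEC (adjusted p = 0.0629 by Fisher's exact test, and past the threshold without RPTEC SETD2KO-1R 2, the 1 RPTEC library that called it), and ROBO1, an axon guidance receptor, in 8 and 2 (adjusted 0.178).

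Of 2357 short arm regions merged over all 16 libraries, 89 (3.78%, against 4.25% of all regions and 4.17% on the rest of chromosome 3) were called in all 16, in 76 protein-coding genes. They ranked from the 35.5 to the 97.5 percentile of their lists, led by MAP4 (47916175-47917539), CDCP1 (45084889-45086351), a transmembrane glycoprotein, and EMC3 (9986654-9987276), a subunit of the membrane insertion complex of the endoplasmic reticulum. Regions that separate the cell lines were few. A single region, at 8191412-8192254 in no gene, was called in all 786-O and no RPTEC libraries (0.0424%, against 0.172% of all). There were 3 regions, in WNT7A (13818164-13819676), ZNF502 (44720690-44722380) and ZNF717 (75737549-75738213), called in all RPTEC and no 786-O libraries (0.127%, against 0.152% of all).

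**Figure D4:**
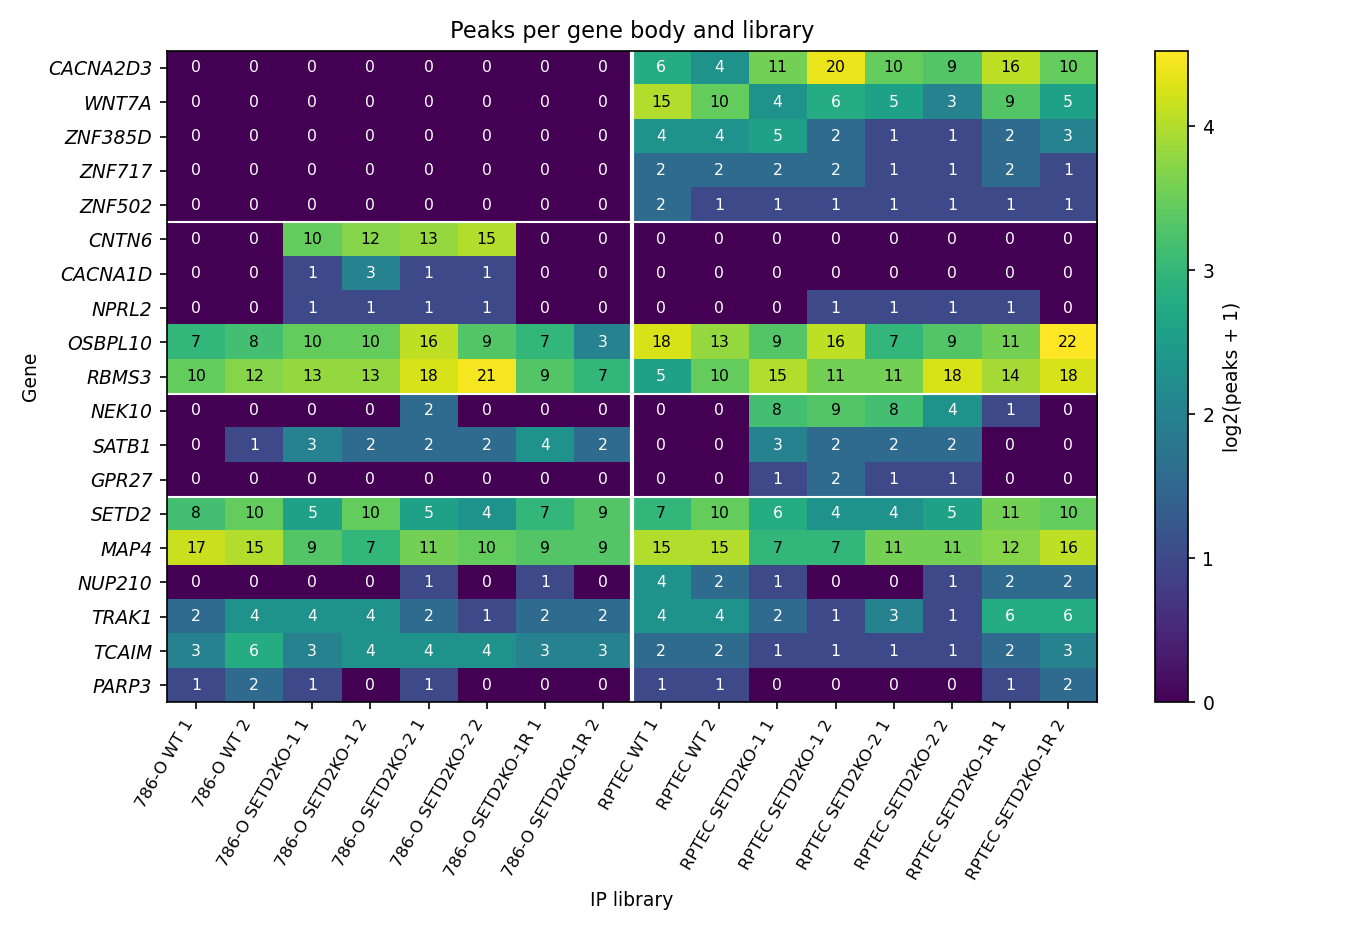
Peaks per gene body (number in each cell, colour on the scale of log2(peaks + 1)) in the 16 libraries (columns) for genes described in the text that differ between the cell lines or, without overlap, between knockout and SETD2-expressing libraries of 786-O or RPTEC (rows, white lines between the sets). The top 5 rows are 0 throughout 786-O, and CNTN6 is at 10 to 15 in the 786-O knockouts and 0 in the other 12 libraries.

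Changes with SETD2 were read from regions merged within a cell line, 1726 short arm regions in 786-O and 1758 in RPTEC, as counts with no test. In 786-O, 21 regions were called in all 4 knockout and neither WT library (gained, 1.22%, against 1.02% of all regions and 1.41% on the rest of chromosome 3), and 27 in both WT and no knockout library (lost, 1.56%, against 1.51% and 0.952%). In RPTEC, 8 were gained (0.455%, against 0.732% of all and 1.25% on the rest of chromosome 3) and 27 lost (1.54%, against 1.44% and 1.16%). The short arm therefore gained and lost regions at shares near those of the genome, with fewer gained in RPTEC. The 21 gained regions of 786-O became 5 with the upper 50% of each list by score, 4 with the same number of top-scoring peaks from every list, and 10 where at least 50% of the region had to be covered. In RPTEC the upper 50% gave 4 gained and 8 lost regions, and the same number of peaks gave 17 lost.

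Asking in addition that the rescue return to the WT state left fewer regions. In 786-O, 15 regions were called in all 4 knockout and none of the 4 SETD2-expressing libraries (0.869%, against 0.475% of all and 0.911% on the rest of chromosome 3), and 1 the reverse way (0.0579%, against 0.147%), in NKIRAS1 at 23893256-23893642. In RPTEC these were 6 (0.341%, against 0.263%) and 0 (0%, against 0.212%). The 15 of 786-O fell to 3, 2 and 5 with the upper 50% of each list, the same number of peaks and the coverage of at least 50%, and the 6 of RPTEC fell to 2 with the upper 50%. The 1 of 786-O became 3 with the same number of peaks and 2 with the coverage rule, and the 0 of RPTEC became 1 in both. Of the 15 in 786-O, 9 lay close together near the tip of the arm, 5 of them in CNTN6 and 4 just before it at 1030222-1063452, in no gene. The others were in THRB, RBMS3, NPRL2 (50350129-50350473), the antisense gene SEMA3F-AS1 (50141546-50142361) and, as a pair near 65 Mb, outside protein-coding genes. In RPTEC 2 of the 6 were in SATB1 (18348850-18349818 and 18424785-18425477, at the 82.6 and 78.8 percentile) and 1 each in NEK10 (27261119-27261807), in the overlapping EIF4E3 and GPR27, in the overlapping OGG1 and CAMK1, and in no gene.

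Between SETD2KO-1 and the rescue made from it, the cell lines went apart. In 786-O, 124 regions were called in both SETD2KO-1 libraries and neither rescue library (7.18%, against 4.78% of all and 5.88% on the rest of chromosome 3) and 19 the other way (1.10%, against 1.97% of all). In RPTEC the counts were 47 (2.67%, against 2.79%) and 61 (3.47%, against 3.25%). Library 2 of the 786-O rescue is the shortest list of that cell line, and the part of list length in these counts was not tested.

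**Figure D5:**
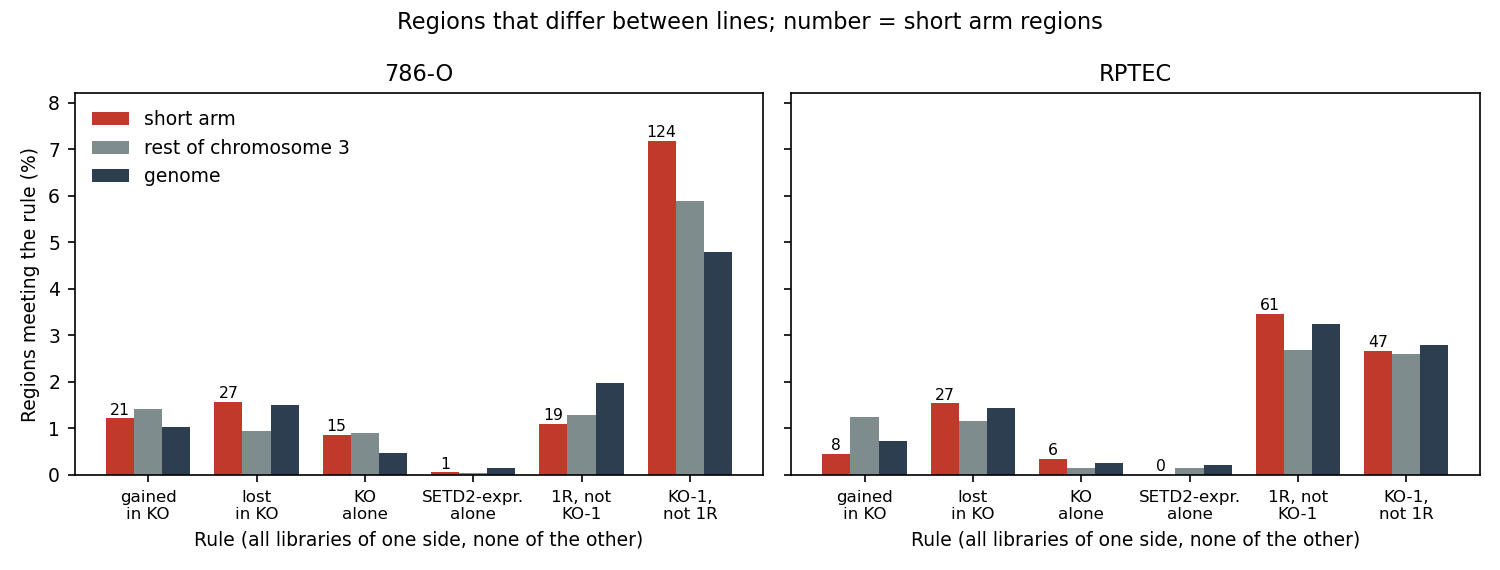
Percent of regions that meet each rule (y axis) on the short arm, on the rest of chromosome 3 and in the genome, for 786-O (left) and RPTEC (right); each rule asks that one set of libraries all call the region while the opposite set does not, and the number over a bar is the count of short arm regions. The tallest bar is the 124 regions (7.18%) of 786-O called in both SETD2KO-1 and neither rescue libraries.

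By rank in the lists, the leading gained regions of 786-O in protein-coding genes were in KIAA1143 (44753459-44753822, at the 91.8 percentile), ZNF619 (at 67.0) and CNTN6 (1239430-1241512). The first 2 were also called in both rescue libraries, so they separate WT from the other lines. The leading lost regions were in IP6K2, an inositol phosphate kinase (48691450-48691737, 91.2), ZDHHC3, a palmitoyltransferase (44959401-44959713, 91.0), and FRMD4B (69176592-69176874, 89.3), and none of these 3 was called in a rescue library. In RPTEC the leading gained regions were the 2 in SATB1 and 1 in RBMS3 (29783711-29784910), and the leading lost ones were in PBRM1 (52603686-52603980, 68.3), QRICH1 (49093932-49094234, 66.0) and WNT7A (13871468-13871900, 61.7). WNT7A held 5 of the 27 lost regions of RPTEC, and 1 of those 5 was called again in a rescue library.

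These counts rest on few libraries. In 786-O, leaving out WT 1 raised the lost regions to 201, WT 2 gave 163 lost and 42 gained, SETD2KO-2 2 gave 42 lost, 33 gained and 25 called in knockouts alone, and SETD2KO-1 2 gave 41 lost. In RPTEC, leaving out WT 1 gave 156 lost and 31 gained, WT 2 157 and 13, SETD2KO-2 2, the shortest list, 41 and 22 with 10 called in knockouts alone, and SETD2KO-1 1 and SETD2KO-2 1 gave 18 and 15 gained. Regions called in SETD2-expressing libraries alone rose from 1 to 4 in 786-O without WT 1, SETD2KO-2 1 or SETD2KO-1R 2, to 3 without WT 2, SETD2KO-1 2 or SETD2KO-2 2, and to 2 without SETD2KO-1R 1. In RPTEC they rose from 0 to 10 without WT 2, to 6 without SETD2KO-1R 1, to 4 without SETD2KO-1R 2, to 3 without SETD2KO-1 2 or SETD2KO-2 2, to 2 without SETD2KO-1 1, and to 1 without WT 1 or SETD2KO-2 1.

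By gene, knockout and SETD2-expressing libraries were set apart where every library of one side had more peaks in the gene body than any of the other. In 786-O, 5 of 320 short arm genes with a peak had more peaks in every knockout library (1.56%, against 1.55% of all genes) and 0 had fewer (0%, against 0.886%). In RPTEC, 3 of 333 had more (0.901%, against 1.02%) and 7 had fewer (2.10%, against 1.44%). The shares are near those of the genome. With the upper 50% of each list, and with the same number of peaks, CNTN6 alone remained of the 5 of 786-O. Of the 7 of RPTEC, SETD2 alone remained under either setting, beside 1 other gene each time. Of the 3 of RPTEC, NEK10 and SATB1 remained under both. With the same number of peaks, 3 genes of 786-O (PBRM1, SS18L2 and TASOR) had fewer peaks in every knockout library. The share of all genes that do so in that setting was not counted. The genes were chosen by these values, which are therefore given as a description.

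The clearest was CNTN6 (1093024-1404217), a contactin of the immunoglobulin superfamily known from neurons. It held 0, 0, 10, 12, 13, 15, 0 and 0 peaks in 786-O and none in RPTEC. Both knockout clones showed it, and neither WT nor the rescue of SETD2KO-1 did. CACNA1D, the pore subunit of an L-type calcium channel, held 1, 3, 1 and 1 peaks in the 786-O knockouts and none in any other library of either cell line. NPRL2, part of the GATOR1 complex that restrains mTORC1, held 1 peak in each 786-O knockout library and none in its SETD2-expressing ones, while in RPTEC it was called in 3 knockout libraries and 1 rescue library. RBMS3 held 10, 12, 13, 13, 18, 21, 9 and 7 peaks in 786-O, and OSBPL10 7, 8, 10, 10, 16, 9, 7 and 3. In RPTEC both overlapped between the groups, with RBMS3 at 5, 10, 15, 11, 11, 18, 14 and 18 and OSBPL10 at 18, 13, 9, 16, 7, 9, 11 and 22.

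In RPTEC the genes with more peaks in every knockout library were NEK10, a NIMA-related kinase of ciliated cells, SATB1 and GPR27, an orphan receptor gene that shares its peak with EIF4E3. NEK10 held 0, 0, 8, 9, 8, 4, 1 and 0 peaks in RPTEC, and in 786-O 2 in a single SETD2KO-2 library. SATB1 held 0, 0, 3, 2, 2, 2, 0 and 0 in RPTEC but 0, 1, 3, 2, 2, 2, 4 and 2 in 786-O, where the rescue libraries were as high as the knockouts. Among the 7 with fewer were SETD2 itself, MAP4, the nuclear pore protein NUP210, the mitochondrial transport adaptor TRAK1, TCAIM and PARP3, an ADP-ribosyltransferase of DNA repair. MAP4 had 15, 15, 12 and 16 peaks in the SETD2-expressing libraries and 7, 7, 11 and 11 in the knockouts, and in 786-O 17 and 15 in WT, 7 to 11 in the knockouts and 9 and 9 in the rescue. TRAK1 had 4, 4, 6 and 6 in the SETD2-expressing libraries of RPTEC and 2, 1, 3 and 1 in its knockouts, while in 786-O the groups overlapped, at 2, 4, 2 and 2 against 4, 4, 2 and 1.

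Leaving out 1 library changed these gene counts as well. The 5 genes of 786-O became 10 without WT 2 or SETD2KO-2 2, 9 without SETD2KO-2 1 and 8 without SETD2KO-1R 2, and the 0 with fewer peaks became 2 without SETD2KO-2 1 and 1 without WT 1, WT 2, SETD2KO-1 2, SETD2KO-2 2 or SETD2KO-1R 1. In RPTEC the 7 became 15 without SETD2KO-1 2 and 12 without WT 2, and the 3 became 5 without SETD2KO-2 2 or SETD2KO-1R 2.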

How the data were processed

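MeRIP-seq IP libraries of 786-O and RPTEC cells were analysed from 16 deposited peak lists. Input libraries were not analysed here. By the authors' methods, reads were aligned with STAR to hg38, scaled by an E. coli RNA spike-in, and peaks called with MACS2, IP over Input, in each library. The deposited lists give position, a whole-number score of unstated scale and no read counts, so peaks were ranked by score inside each list and no further use was made of it, and depth is unknown. Peaks carry no strand. Some genes are not reported here. The remaining value columns held 0 throughout and were not used. The 1171 peaks on contigs outside the main chromosomes count in a list's total and in no chromosome part.

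A peak was given to a gene of the RefSeq table (GRCh38.p14, 59675 genes, 20033 protein-coding, same coordinates as hg38) where its midpoint lay in the gene body, and position along the gene used the 15842 protein-coding genes whose strand a promoter window gives (429 on the short arm). Exons were not available, so peaks were not split into exonic and intronic. Peaks that overlapped by at least 1 bp were merged into regions, separately for each cell line (78921 and 68428) and over all 16 libraries (99258). Shares were compared by exact permutation tests, genes by Fisher's exact test on 8 against 8 libraries with Benjamini-Hochberg adjustment over all 13320 genes with a peak, and regions as counts. Genes were named from gene lists of the arm, as the 5 richest in peaks, as those passing the test between cell lines, and as up to 3 leading regions for each rule against WT or rescue. Other genes, among them those that do not overlap between knockout and SETD2-expressing libraries, and the promoter windows shown were picked after their values were seen. The members and lists were chosen with earlier results of these data known. The gene test, the share test and the region rules were tested on simulated data. Tests were run with SciPy 1.17.1 in Python 3.11.15, tables were handled with pandas 2.3.3 and NumPy 2.4.6, and figures were drawn with Matplotlib 3.10.9.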

Additional observations from a re-analysis of the deposited data

Results flagged for a closer look

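In 40 groups of 4 libraries, the highest and the lowest value were compared with the others by Dixon's ratio, and 3 exceeded its critical value at the 95% level. Chance flags about 1 in 20 groups. SETD2 held 10 peaks in 786-O SETD2KO-1 library 2, where the other 3 knockout libraries had a median of 5 (ratio 0.833). COL7A1 held 3 peaks in 786-O SETD2KO-1R library 2, against a median of 14 in the other SETD2-expressing libraries (ratio 0.846), and that list is the shortest of 786-O. OSBPL10 held 16 peaks in 786-O SETD2KO-2 library 1, against a median of 10 in the other knockout libraries (ratio 0.857). Gene groups that spanned fewer than 4 peaks were not examined. The difference between 786-O and RPTEC in the knockout effect was tested for 20 measures and passed for none after adjustment. The smallest p was that of OSBPL10, with 5 more peaks in the 786-O knockouts and 5.75 fewer in those of RPTEC (exact permutation p = 0.0135, adjusted 0.190, 4900 arrangements).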

How the results depend on the processing

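The lower short arm share of 786-O kept its direction under every peak set, unit and left-out library tried (-0.455 to -0.409 without 1 library). It passed adjustment only with libraries as units, at -0.432 (adjusted p = 0.000971, exact permutation), or with a replicate block on the same units (-0.432, adjusted p = 0.00255). The labels tie the replicate numbers to no shared culture or day. Over 12 pairs of lines the correlation of same-numbered deviations ran from -0.780 to 0.711, with 5 of 6 pairs above 0.1 in 786-O and 3 of 6 in RPTEC, so a pairing did not hold throughout and the block was kept as an alternative. The block left the 5 genes called in RPTEC at 5 and changed no other call. Within chromosome 3 the cell line difference was -4.49 with peaks in protein-coding genes alone (exact permutation p = 0.0286), and -4.74 to -3.83 without 1 library. The knockout minus SETD2-expressing difference of 786-O turned to -0.0262 with the upper 50% of each list, -0.00649 with the same number of top-scoring peaks, and -0.0401 without the shortest lists (-0.0401 to 0.187 without 1 library).

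Region counts moved in both directions. With the upper 50% of each list, then the same number of top-scoring peaks, then at least 50% of the region covered, gained regions of 786-O numbered 5, 4 and 10, and those in knockouts alone 3, 2 and 5. Regions in SETD2-expressing 786-O libraries alone numbered 3 and 2 in the last 2 settings and 4 without the shortest list. In RPTEC the upper 50% gave 4 gained, 8 lost and 2 in knockouts alone, the same number gave 17 lost and 1 in SETD2-expressing alone, and coverage gave 1 there. Without the shortest list these were 22, 41, 10 and 3. Leaving out 1 library gave ranges of 27 to 42 gained, 37 to 201 lost, 16 to 25 and 1 to 4 in 786-O, and 10 to 31, 30 to 157, 6 to 10 and 1 to 10 in RPTEC. Genes called differently between the cell lines, 5 as reported, numbered 1 (WNT7A) with the upper 50%, 3 with the same number, 5 to 6 without 1 library (the same 5 in RPTEC each time, and SS18L2 more often in 786-O without RPTEC SETD2KO-1R 2), and 0 with lines as units (an alternative chosen after seeing the data, in which 0 genes passed genome-wide and none could unless most genes reached the smallest p). Genes with more peaks in every 786-O knockout numbered 1 and 1 in those settings and 8 without the shortest list (6 to 10 without 1 library), and those with fewer numbered 3 with the same number (PBRM1, SS18L2 and TASOR, with 0 to 2 without 1 library). In RPTEC those with more numbered 5 without the shortest list (3 to 5) and those with fewer 2 and 2 (9 to 15). The RPTEC width difference was -14 bp (exact sign-flip p = 0.0781) and -9.88 bp (p = 0.0703) in those settings. Without 1 library the share in protein-coding genes differed by 6.92 to 7.35 and 4.67 to 5.52 points, the width by -13.5 to -10.6 and -11.6 to -7.36 bp, and the score percentile by -2.95 to -2.68 and -1.82 to -1.50, for 786-O and RPTEC. Knockout minus WT ran from -0.255 to -0.192 and from -0.174 to -0.0956, and RPTEC knockout minus SETD2-expressing from -0.182 to -0.143. The cause of these changes was not tested beyond the smaller number of peaks or libraries that each setting keeps. Depth is unknown and cannot be weighed.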
